A study of Mus musculus with 10 samples.

Results

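Integrins are the receptors with which cells hold on to matrix and to each other. Each receptor pairs 1 α with 1 β subunit: the pair decides the ligand, talin and kindlin bind the tail of the β subunit to switch it on, and adaptors and kinases carry the signal to actin. Fibroblast-like cells mainly carry Itgb1 and Itgav pairs, whereas Itgb2 pairs belong to leukocytes. The genes described here were every gene whose symbol begins with Itga or Itgb, which is 30 of the 18384 genes listed in the mRNA-seq data: 18 α subunits, 8 β subunits and 4 genes that share the prefix but encode no subunit of the receptor pair (Itgb1bp1, Itgb1bp2, Itgb3bp and Itgbl1). The rule is on names and uses no measured value, but it was set with earlier results of these data known.

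All cultures held adipocyte precursors (APs) from the subcutaneous white adipose tissue (scWAT) of C57BL/6J mice, depleted of CD45- and CD31-positive cells on magnetic columns, selected for SCA-1 and grown in serum-containing medium. The control group comprised 3 cultures without added cytokine and the IL-4 group 3 cultures incubated with interleukin 4, a type 2 cytokine, all analysed on day 4. The age and sex of the mice, the dose of IL-4 and whether animals were pooled are not given in the sources used here. The design text calls the cultures of a group biological replicates, and nothing says whether they came from separate animals, so the p-values measure the spread between these cultures. The control cultures were numbered 1 to 3 and the IL-4 cultures 4 to 6.

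The control libraries held 28526782 to 28674604 expected counts and the IL-4 libraries 28914003 to 29057787. IL-4 replicate 6 differed from the other libraries by transcript length: against the mean of its group, genes with transcripts over 5 kb were lower by a median of 0.23 on the log2 scale (deviation -0.23) and genes under 2 kb higher by 0.17, while the other 5 libraries deviated by -0.10 to 0.13. Transcripts of the 30 genes ran from 1.32 to 9.83 kb with a median of 4.34 kb, against 2.86 kb over all genes tested. Without that library, 3199 genes were higher and 3014 lower over all genes, against 2663 and 2582 with it. The AP label was checked against 11 AP markers, all of which were detected, although some were low. Dpp4 had only 0.22 to 0.4 FPKM, and in control cultures Pi16 had 0.76 to 0.8 FPKM and Dlk1 1.34 to 1.76 FPKM. Pdgfra averaged 55.3 FPKM in control and 71.4 FPKM in IL-4 cultures, and Ly6a, which encodes SCA-1, averaged 120 and 245 FPKM. Pdgfrb averaged 190 FPKM in control and 107 FPKM in IL-4 cultures. Macrophage genes were also present in every library, as described with the leukocyte integrins.

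Of the 30 genes, 26 passed the filter on low counts and were tested, among 14009 genes in all. With IL-4, 7 of the 26 were higher (26.9%, against 19.0% of all genes tested) and 9 were lower (34.6%, against 18.4%) by edgeR's quasi-likelihood test at a Benjamini-Hochberg adjusted p under 0.05, and 10 did not pass. Beyond a 2-fold difference, 3 were higher (11.5%, against 5.77%) and 6 lower (23.1%, against 5.26%). In 8 of the 26 every IL-4 library lay above every control library (30.8%, against 25.2% of all genes tested), and in 10 every IL-4 library lay below (38.5%, against 25.3%). The median log2 fold change was -0.22 for the 26 genes and 0.00 for all genes tested. The split depended on scaling: with library totals in place of TMM scaling, which moved the median of all genes by -0.17, 5 were higher and 14 lower, and limma on log2(FPKM + 1), with a shift of -0.13, gave 5 and 12. Without IL-4 replicate 6, 10 were higher and 9 lower, and 2 rather than 3 were higher beyond 2-fold, as Itgb7 went from 1.09 to 0.90 on the log2 scale; without control replicate 2, 4 were higher and 6 lower.

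**Figure D1:**
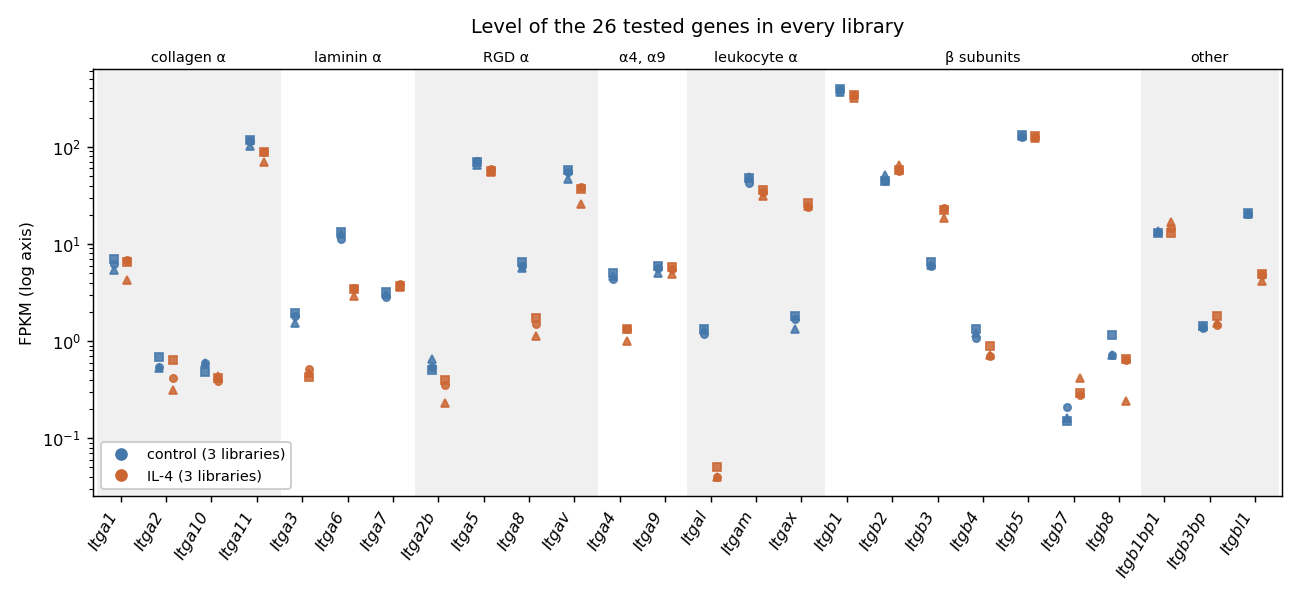
Expression level in FPKM (log axis) of the 26 tested genes in each library, ordered by role; blue points are the 3 control and orange points the 3 IL-4 cultures, with circles, squares and triangles for replicates 1, 2 and 3 of the control and 4, 5 and 6 of the IL-4 group. Itgb1 had the highest level in both groups, and the groups lie furthest apart for Itgax and Itgal.

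**Figure D2:**
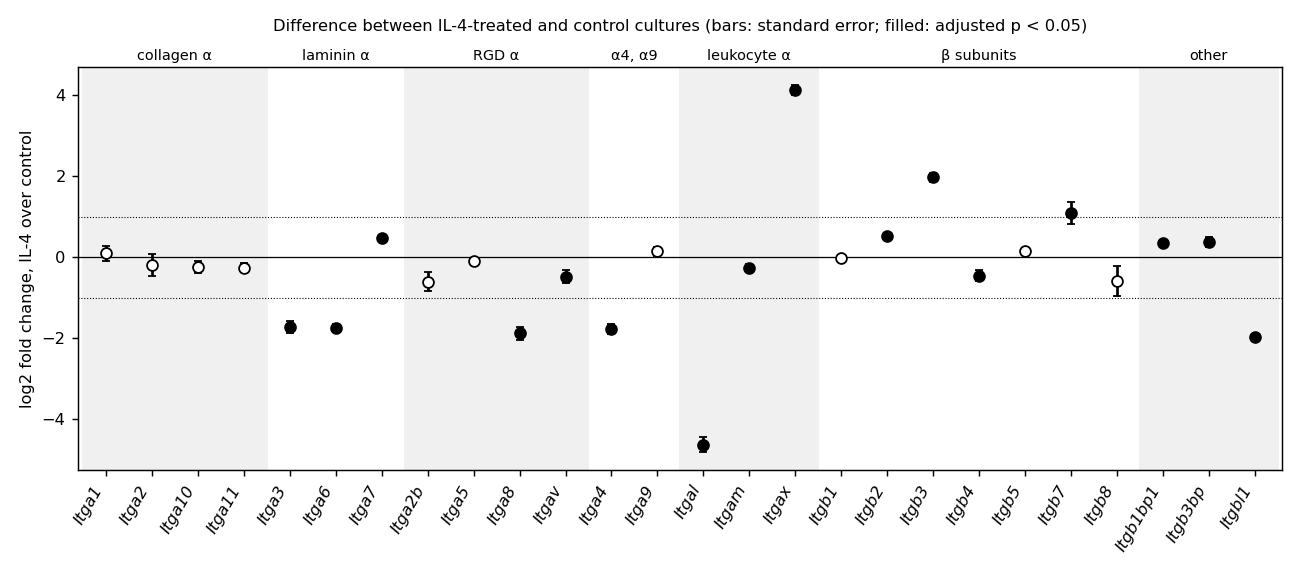
Fitted log2 fold change of IL-4 over control for the same 26 genes, with standard errors derived from the edgeR test as bars, filled points for an adjusted p under 0.05 and dotted lines at a 2-fold difference. Values run from -4.63 for Itgal to 4.13 for Itgax, and the 4 collagen-binding α subunits lie near 0 with open points.

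The plot of levels shows FPKM, the deposited reads scaled to transcript length and sequencing depth, on which genes can be compared with each other. The plot of differences shows the contrast between the groups on TMM-scaled counts. Summed over all 30 genes, the level was 902 to 962 FPKM in control and 779 to 846 FPKM with IL-4. These FPKM are not TMM-scaled. Both FPKM fits moved the median log2 fold change of all genes, by -0.13 and -0.17, so the sums cannot show whether the total differed. The 4 genes that were not tested had next to no reads: counts in control 1, 2, 3 and IL-4 4, 5, 6 were 1, 0, 5 and 1, 2, 4 for Itgad (the CD11d subunit), 2, 5, 6 and 3, 0, 1 for Itgae (CD103 of epithelial T cells), 10, 3, 7 and 5, 8, 7 for Itgb6 (an epithelial partner of Itgav) and 3, 6, 5 and 2, 1, 3 for Itgb1bp2 (melusin, a muscle protein). These counts were too few to show a difference.

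The 2 largest differences among the 26 genes were in leukocyte integrins, and they ran in opposite directions. Itgax encodes CD11c, the α subunit of complement receptor 4 on macrophages and dendritic cells. Normalized counts, which are TMM-scaled to a common depth, were 181, 197 and 143 for Itgax in control cultures and 2946, 3218 and 2946 in IL-4 cultures. The groups were far apart, and the 3 IL-4 libraries were close to each other. Itgax was 17.5-fold higher with IL-4 (log2 fold change 4.13 ± 0.12 SE, adjusted p = 1.99e-07). Itgal encodes CD11a of LFA-1, which binds the ICAM proteins, and was named after its values had been seen, since its mean lies under the 100 normalized counts set for giving single values. It stood at 164, 186 and 182 normalized counts in control and at 6.42, 8.54 and 6.20 with IL-4, so that the groups were as clearly apart in the opposite direction. Its level was 24.8-fold lower with IL-4 (log2 fold change -4.63 ± 0.18, adjusted p = 8.28e-07). Itgal passed the filter through the control libraries alone, the IL-4 libraries having only 6, 8 and 6 counts.

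Itgam and Itgb2 moved far less. Itgam encodes CD11b of complement receptor 3 and was by level the leading leukocyte α subunit in both groups, with 42.0, 47.7 and 48.9 FPKM in control cultures and 34.5, 36.0 and 31.3 FPKM in IL-4 cultures. Its log2 fold change was -0.27 ± 0.09 (adjusted p = 0.0397), a call that was lost without control replicate 2 (adjusted p = 0.131), control replicate 3 (0.12) or IL-4 replicate 4 (0.073). Itgb2 encodes CD18, the shared β subunit of these pairs, and stood at 3413, 3444 and 3877 normalized counts in control and 4909, 5026 and 5455 with IL-4. Every IL-4 library was thus higher, by 1.43-fold (log2 fold change 0.52 ± 0.07, adjusted p = 0.000827).

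The makeup of the α side of Itgb2 therefore shifted. Of the summed FPKM of Itgal, Itgam, Itgax and Itgad, Itgax held 3.74%, 3.56% and 2.60% in control cultures and 41.0%, 42.1% and 44.1% in IL-4 cultures. Itgam went from 94.1% ± 0.614 (SD, n = 3) to 57.5% ± 1.59 (SD, n = 3), and Itgal from 2.58% ± 0.0356 to 0.0732% ± 0.0062. The groups did not overlap for any of these 3 shares; the two-sided exact permutation test gave p = 0.1 for each, the smallest value it can give with 3 against 3. The sum of the 4 α subunits stayed near the level of Itgb2 itself: the ratio was 1.04 ± 0.0751 (SD, n = 3) in control and 0.99 ± 0.111 (SD, n = 3) in IL-4 cultures, and the ranges overlapped (exact permutation p = 0.6).

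**Figure D3:**
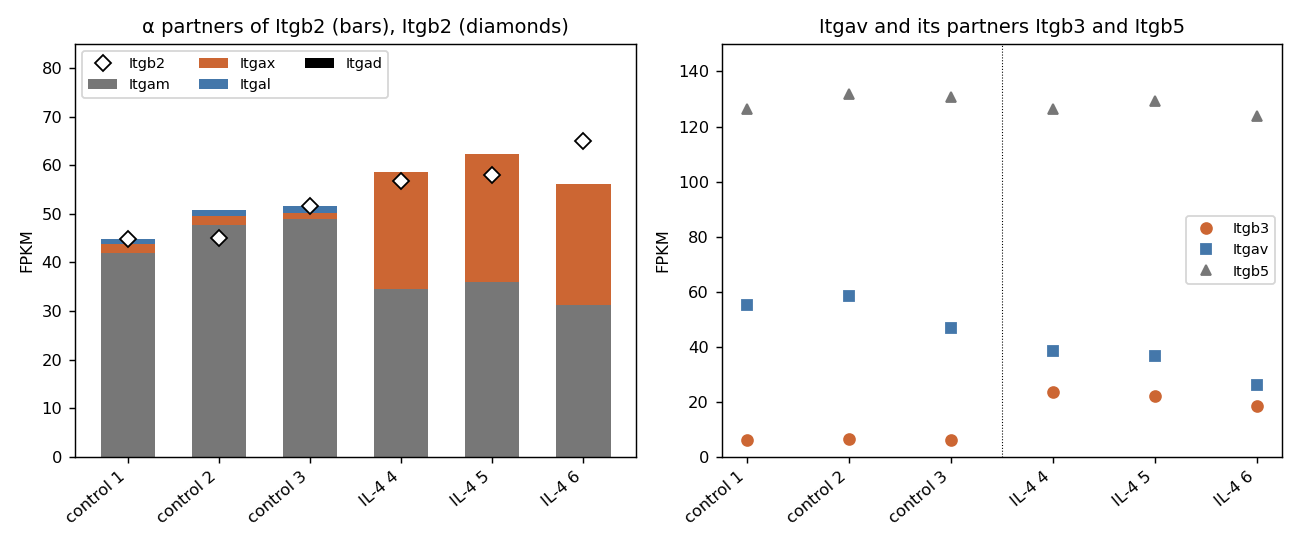
Left, FPKM of the 4 α partners of Itgb2 stacked per library, with Itgb2 as diamonds; right, FPKM of Itgav and of its partners Itgb3 and Itgb5 per library, with the control cultures left of the dotted line. Itgax is a thin segment of the control bars and a large one of the IL-4 bars, and Itgb3 lies at 5.93 to 6.50 FPKM in control and 18.4 to 23.6 FPKM in IL-4 cultures, with Itgb5 between 124 and 132 FPKM throughout.

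In the left panel of the plot of partner subunits, the stacked bars and the diamonds are both taller in each IL-4 than in each control library, with a shorter grey segment for Itgam and a longer orange one for Itgax. Markers of macrophages were mostly lower with IL-4, whereas Itgax and Itgb2 were higher. All 16 macrophage markers were detected and tested, 2 higher (12.5%, against 19.0% of all genes tested) and 12 lower (75%, against 18.4%) with IL-4, with a median log2 fold change of -0.92, and their summed level was 3636 to 4684 FPKM in control and 1490 to 1974 FPKM with IL-4. Ptprc, which encodes the CD45 used for depletion, was among those lower (log2 fold change -0.99, adjusted p = 1.87e-05), as were Fcgr1 (-2.91) and Cd14 (-2.59). Cx3cr1 had 1484 to 1853 counts in control and 3 to 5 with IL-4, and Aif1 had 162 to 296 and 6 to 13, so that both passed the filter on low counts through the control libraries alone. Mrc1 (0.82) and Cd163 (0.88) were higher. The 2 that did not pass were Cd68 (0.38, adjusted p = 0.0572) and Fcgr3 (-0.04, adjusted p = 0.796), and Adgre1 was only slightly lower (-0.24). Lyz2 (-1.64) gave the largest part of the summed level, with a mean of 2739 FPKM in control and 776 FPKM with IL-4. In these bulk cultures fewer cells of a type and less RNA per cell cannot be told apart, and the part of macrophages in the changes of Itgax, Itgal, Itgam and Itgb2 was not tested. Markers of lymphocytes, which also carry Itgal, were low: 5 of 12, among them Cd3e, Cd3g, Cd3d and Ncr1, were listed in no library, and the 7 others summed to 2.81 to 3.31 FPKM in control and 4.51 to 5.02 FPKM in IL-4 cultures. Of the 3 tested, Il7r rose (log2 fold change 1.36) and Cd4 fell (-2.33), 33.3% each way, against 19.0% and 18.4% of all genes tested. Cd4 was named to complete the count. It had 54 to 85 counts in control and 8 to 15 with IL-4, and passed the filter on low counts through the control libraries. Dendritic cell markers, which often accompany Itgax, summed to 1.25 to 1.74 FPKM and 1.04 to 1.52 FPKM, with 1 of 6 tested and none passing. Markers of osteoclasts and fused macrophages were mostly higher: of 6 tested, 4 rose (66.7%, against 19.0% of all genes tested) and 1 fell (16.7%, against 18.4%). Acp5 (3.13), Ctsk (1.91), Atp6v0d2 (3.67) and the sparse Ocstamp (2 to 5 counts in control, 48 to 68 with IL-4) rose and Nfatc1 (-0.83) fell. Ocstamp passed the filter on low counts through the IL-4 libraries alone. The summed level of this list was 130 to 140 FPKM in control and 453 to 558 FPKM with IL-4.

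Itgal, Itgam, Itgax and Itgad lie on chromosome 7 of GRCm38 (mm10). Itgal spans 127296139 to 127335137, Itgam 128062640 to 128118491, Itgax 128129526 to 128150657 and Itgad 128173933 to 128205504. Itgam and Itgax are separated by 11 kb and Itgax and Itgad by 23 kb, while Itgal lies 728 kb from Itgam. The 17.5-fold rise of Itgax stood between a neighbour that was slightly lower and one that had at most 5 counts in any library.

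IL-4 signals through STAT6, which binds a palindrome of TTC and GAA with 4 bases of any kind between them. Promoter sequences (300 bases around a start, RefSeq, GRCm38.p6) were held for 21 of the 30 genes, Itgal, Itgb2 and Itgb3 not among them. The motif was present, on either strand, in 2 of their 23 promoters, against 6.95% of 32851 mouse promoters. Positions are counted from the transcript start that each promoter entry was cut around, which is 128129550 for Itgax and 95076714 for Itga3; these are not the outermost starts of the genes, and the Itga3 window lies inside the longer transcripts of that gene. Both are shown since their genes moved in opposite directions, in lower case and in the direction of the gene, with the motif in capitals.
Itgax, chr7:128129415-128129440, 127 bases before that start: agcaactcTTCCCTGGAAgtgtgtag
Itga3, chr11:95076790-95076815, minus strand, 93 bases before that start: ttttctctTTCCCCGGAAggaaagcg
Itgax was 17.5-fold higher and Itga3 3.33-fold lower with IL-4. The AP-1 motif TGANTCA was present in 3 of the 23 promoters (7.81% of all promoters), in Itgax, Itga9 and Itga3. In Itgax it lies 56 bases before the start given above, apart from the STAT6 match. In Itga3 it lies in another promoter entry, cut around a start at 95069198. The PU.1 motif GAGGAAGT was present in 4 (3.20%) and the TEAD motif GGAATG in 2 (14.7%). The PU.1 matches were in Itga11, Itgav, Itgb6 and Itgb7. A match describes the letters in the window only.

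Among the subunits that bind the RGD motif of fibronectin, vitronectin and osteopontin, Itgb3 rose while its partner Itgav was slightly lower. Itgb3 encodes the β subunit of the vitronectin receptor and of the platelet fibrinogen receptor. It lies on chromosome 11 (104608000 to 104670476, GRCm38) and stood at 924, 1020 and 932 normalized counts in control cultures and at 4186, 3932 and 3159 in IL-4 cultures. All IL-4 libraries were well above the controls, with replicate 6 the lowest of them, and Itgb3 was 3.92-fold higher (log2 fold change 1.97 ± 0.11, adjusted p = 5.22e-06), or 2.09 on the log2 scale without replicate 6. Of the 6 osteoclast and fused macrophage markers given with the leukocyte integrins, 4 rose as well (median log2 fold change 2.52). Ocstamp, among the 4, passed the filter on low counts through the IL-4 libraries alone. The part of this list in the rise of Itgb3 was not tested. Itgav encodes the αv subunit that pairs with Itgb1, Itgb3, Itgb5, Itgb6 and Itgb8, and stood at 10499, 11204 and 8780 normalized counts in control and 8286, 7949 and 5442 with IL-4. The groups did not overlap, but control replicate 3 and IL-4 replicate 6 were each the lowest of their group. Its log2 fold change was -0.49 ± 0.16 (adjusted p = 0.0447), and the call was lost without control replicate 1 (adjusted p = 0.129), control replicate 2 (0.142) or IL-4 replicate 5 (0.0637). Without IL-4 replicate 6 the log2 fold change was -0.32 and passed the test (adjusted p = 0.0148).

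Itgb5, the other main RGD-binding β subunit and by level the second of all subunits, averaged 130 ± 2.92 FPKM in control and 126 ± 2.69 FPKM in IL-4 cultures (SD, n = 3 each). The FPKM overlapped, whereas every IL-4 library was above every control library in normalized counts (12049 to 12944 against 11124 to 11706). Its log2 fold change was 0.14 (adjusted p = 0.0982), but -0.04 with library totals and with both FPKM fits, and 0.17 (adjusted p = 0.02) without IL-4 replicate 6. Per library, the ratio of Itgb3 to Itgb5 in FPKM was 0.0469, 0.0492 and 0.0462 in control and 0.187, 0.172 and 0.148 in IL-4 cultures, with no overlap (exact permutation p = 0.1, the smallest possible). Itgb3 therefore remained the smaller of these β partners of Itgav in every library. Itgb8, an activator of latent TGF-β with Itgav, was sparse, with 58.9 to 96.0 normalized counts in control and 21.7 to 61.9 in IL-4 cultures, and did not pass (adjusted p = 0.264). The groups overlapped, and IL-4 replicate 6 was the lowest library. The right panel of the plot of partner subunits shows Itgb3 drawing close to Itgav within the IL-4 libraries, where they had 18.4 to 23.6 FPKM and 25.9 to 38.3 FPKM.

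The other RGD-binding α subunits differed from each other. Itga8, which pairs with Itgb1 to bind nephronectin and fibronectin and is typical of mesenchymal cells, lies on chromosome 2 (12106632 to 12301985, GRCm38). It stood at 927, 1032 and 867 normalized counts in control cultures and at 267, 306 and 192 in IL-4 cultures. Every IL-4 library was below every control library, by 3.69-fold (log2 fold change -1.88 ± 0.16, adjusted p = 4.78e-05). Itga5, the classical fibronectin receptor subunit, averaged 8186 ± 396 and 7697 ± 367 normalized counts (SD, n = 3 each), with overlapping groups and a log2 fold change of -0.09 (adjusted p = 0.327). With library totals this was -0.26 (adjusted p = 0.00805). Itga2b, the platelet subunit CD41, had only 23.7 to 59.1 normalized counts and did not pass (log2 fold change -0.61, adjusted p = 0.0746), although every IL-4 library was below every control library. Of 6 platelet markers 4 were listed, at a summed 23.3 to 35.0 FPKM in control and 11 to 15.6 FPKM in IL-4 cultures. Of the 3 tested, Pf4, which macrophages express as well, fell (-1.21), or 33.3%, against 18.4% of all genes tested. When IL-4 replicate 6 was left out, 2 of the 3 were lower, while 3014 genes were lower over all genes, against 2582 with it. The part of the platelet markers in the values of Itga2b and Itgb3 was not tested.

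Genes of the RGD-bearing ligands moved both ways. Of 13 tested (Ibsp was listed in no library), 5 were higher (38.5%, against 19.0% of all genes tested) and 6 lower (46.2%, against 18.4%), with a median log2 fold change of -0.16. Without IL-4 replicate 6 these were 6 and 7. Fn1, which encodes fibronectin, averaged 1301 FPKM in control and 2767 FPKM in IL-4 cultures and rose by 1.26 on the log2 scale, while Spp1 (osteopontin, -2.56), Thbs1 (thrombospondin, -1.08), Tgfb3 (-0.81) and Npnt, the ligand of Itga8 (-0.75), fell. Npnt was named for its receptor and lies outside the rule for naming. Dmp1, a bone matrix protein, had 0 counts in each control library and 107, 107 and 117 in the IL-4 libraries. It therefore passed the filter on low counts through the IL-4 libraries alone. Set against a floor of 3 counts per control library it was at least 40.9-fold higher, and the median of the list was -0.16 with this bound as well. Of 6 genes that hold latent TGF-β, a ligand of Itgav pairs, none rose and 2 fell (33.3%, against 18.4% of all genes tested), Ltbp2 (-2.04) and Ltbp1 (-1.04). With library totals 5 of these 6 fell, as did 4963 of the 14009 genes in all.

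The laminin-binding α subunits split. Itga6 pairs with Itgb1 or Itgb4 and is the main laminin receptor subunit of many stem and progenitor cells. Itga6 lies on chromosome 2 (71786886 to 71858427, GRCm38) and Itga3 on chromosome 11 (95044475 to 95076844). The normalized counts of Itga6 were 1836, 2162 and 2029 in control and 649, 626 and 513 with IL-4, without overlap. Itga6 was 3.37-fold lower with IL-4 (log2 fold change -1.75 ± 0.10, adjusted p = 7.49e-06). Itga3, which prefers the laminins of epithelial basement membranes, stood at 235, 255 and 200 normalized counts in control cultures and at 77.0, 64.1 and 66.1 in IL-4 cultures. These groups were also apart, by 3.33-fold (log2 fold change -1.73 ± 0.14, adjusted p = 3.72e-05). Itga7, the laminin receptor subunit of muscle, went the other way, from 310, 350 and 325 to 472, 455 and 435 normalized counts. All IL-4 libraries were above all controls, and the log2 fold change was 0.47 ± 0.08 (adjusted p = 0.00262). By level Itga6 led Itga7 in every control library (11.4 to 13.3 FPKM against 2.87 to 3.22 FPKM). In the IL-4 libraries Itga6 had 2.88 to 3.53 FPKM and Itga7 3.64 to 3.84 FPKM, so that Itga7 stood above Itga6 in each of them.

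Itgb4, the hemidesmosome subunit that pairs with Itga6 alone, was sparse, with 176 to 216 normalized counts in control and 129 to 167 in IL-4 cultures and a log2 fold change of -0.46 (adjusted p = 0.0317). The groups did not overlap, but the call was lost without control replicate 2 (adjusted p = 0.114), control replicate 3 (0.0716) or IL-4 replicate 4 (0.0953). On the opposite strand 534 bases, or 8.66% of the exonic bases of Itgb4, are shared with B230344G16Rik, and whether the counting used strand is not stated. Of the 12 laminin and nidogen genes tested, 6 rose (50%, against 19.0% of all genes tested) and 2 fell (16.7%, near the 18.4% of all genes), with a median log2 fold change of 0.33. With library totals 5 rose and 3 fell, and without IL-4 replicate 6, 7 rose and 2 fell. The chains that rose included Lama2 (0.81), and those that fell were Lama1 (-2.26) and Lama5 (-1.32). Cd151, a tetraspanin that associates with the laminin-binding integrins, rose by 0.56 on the log2 scale, and of 8 tetraspanins 5 rose (62.5%, against 19.0% of all genes tested) and 1 fell (12.5%, against 18.4%), including Cd81 (0.88), Cd53 (0.85) and Cd37, which fell (-0.65) except without control replicate 3 or IL-4 replicate 5, when 0 fell.

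No collagen-binding α subunit passed the test. Itga11, the receptor subunit of fibroblasts for fibrillar collagen, had the highest level of all α subunits in every library, with 114, 118 and 102 FPKM in control and 88.9, 88.8 and 69.8 FPKM in IL-4 cultures. These FPKM did not overlap, but the normalized counts did, at 13318 to 15813 against 10225 to 13402. The log2 fold change was -0.26 ± 0.12 (adjusted p = 0.124), and -0.43 (adjusted p = 0.0114) with library totals. Itga1, which prefers collagen IV, had 865 to 1130 and 757 to 1252 normalized counts and a log2 fold change of 0.09 (adjusted p = 0.737). Its sign was not stable: -0.08 with library totals, and 0.29 (adjusted p = 0.031) without IL-4 replicate 6. Itga2 and Itga10, the other members of this group, had under 100 normalized counts in every library and log2 fold changes of -0.19 (adjusted p = 0.619) and -0.25 (adjusted p = 0.217). Of the 8 collagen genes, 5 were higher (62.5%, against 19.0% of all genes tested) and 3 lower (37.5%, against 18.4%), with a median log2 fold change of 0.38. Col6a2 (2.83), Col6a1 (2.65) and Col3a1 (1.37) rose and Col4a2 (-1.08), a chain of collagen IV, fell. With limma on log2(FPKM + 1), 3 rose and 3 fell.

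Itga4 and Itga9 form a subfamily of their own. Itga4 pairs with Itgb1 or Itgb7 to bind VCAM-1 and fibronectin on leukocytes and mesenchymal cells. It lies on chromosome 2 (79255426 to 79333114, GRCm38) and stood at 1151, 1340 and 1242 normalized counts in control and at 399, 398 and 290 with IL-4. The groups were well apart, with Itga4 3.43-fold lower with IL-4 (log2 fold change -1.78 ± 0.13, adjusted p = 2.08e-05). Itga9, a receptor subunit for tenascin and osteopontin, had 932 to 1128 and 987 to 1246 normalized counts, which overlapped, and did not pass (log2 fold change 0.14, adjusted p = 0.369). This was -0.04 with library totals and 0.24 (adjusted p = 0.0359) without IL-4 replicate 6. Itga4 and Itga9 were at like levels in the control libraries, 4.68 ± 0.337 FPKM and 5.52 ± 0.466 FPKM (SD, n = 3 each), and at 1.21 ± 0.191 FPKM and 5.43 ± 0.455 FPKM in the IL-4 libraries.

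Vcam1, the cell surface ligand of Itga4 pairs, rose while Itga4 fell: its normalized counts were 4510 to 4855 in control cultures and 10151 to 10896 in IL-4 cultures (log2 fold change 1.17, adjusted p = 3.33e-06). Of 10 cell surface ligands tested, 4 rose (40%, against 19.0% of all genes tested) and 2 fell (20%, near the 18.4% of all genes), with a median log2 fold change of 0.05. Without IL-4 replicate 6, 4 rose and 3 fell. Besides Vcam1, these were Cdh1 (E-cadherin, a ligand of Itgae, 4.42), Jam2 (1.18) and Cd47 (1.06), which rose, and Icam1, a ligand of Itgal and Itgam (-0.47), and F11r (-0.42), which fell. Icam1 and F11r were named to complete the count. Itgb7, the leukocyte β subunit that pairs with Itga4 or Itgae, was near the limit of detection, at 16, 11 and 12 counts in control and 21, 22 and 32 with IL-4, and is named with its values seen. Every IL-4 library was above every control library and the log2 fold change was 1.09 ± 0.27 (adjusted p = 0.0151), but the call was lost without control replicate 2 (adjusted p = 0.0618) or control replicate 3 (0.054).

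Itgb1, the common partner of most α subunits, was by far the most abundant of the 30 genes. Its normalized counts were 43195, 45059 and 41137 in control cultures and 44076, 44072 and 39749 in IL-4 cultures. The groups overlapped, and the log2 fold change was -0.02 ± 0.07 (adjusted p = 0.874), with -0.19 (adjusted p = 0.0433) under library totals and 0.04 without IL-4 replicate 6. Of the summed FPKM of the 8 β subunits, Itgb1 held 67.5% ± 1.24 in control and 61.6% ± 0.941 in IL-4 cultures (SD, n = 3 each). Over the same sum, Itgb2 held 8.28% ± 0.8 and 11% ± 1.11, Itgb3 1.08% ± 0.0304 and 3.91% ± 0.404, and Itgb5 22.8% ± 0.474 and 23.2% ± 0.299. The groups were apart for Itgb1, Itgb2 and Itgb3 (exact permutation p = 0.1 each, the smallest possible) and overlapped for Itgb5 (exact permutation p = 0.3).

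Among the α subunits, Itga11, Itga5, Itgav and Itgam together led in both groups, and Itgax joined them with IL-4. Of the summed FPKM of the 18 α subunits, Itgax held 0.495% ± 0.0488 in control and 9.86% ± 1.0 in IL-4 cultures (SD, n = 3 each), with no overlap (exact permutation p = 0.1, the smallest possible). The share of Itgav went from 16.4% ± 1.02 to 13.1% ± 1.47 and that of Itga11 from 34.3% ± 0.954 to 32.2% ± 1.25, also without overlap, whereas the shares of Itga5 (21.3% and 22.6%) and Itgam (14.3% and 13.3%) overlapped. In the IL-4 libraries the mean levels of Itgav (33.6 ± 6.74 FPKM) and Itgam (34.0 ± 2.42 FPKM) did not differ beyond their spread. The summed level of α over β subunits was 0.577, 0.585 and 0.545 in control and 0.487, 0.484 and 0.429 with IL-4, lower in all 3 (exact permutation p = 0.1, the smallest possible).

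The genes that share the prefix without being subunits also differed. Itgbl1 encodes a secreted protein with repeats like those of β subunits. It lies on chromosome 14 (123659937 to 123978865, GRCm38) and stood at 1260, 1319 and 1259 normalized counts in control cultures and at 338, 348 and 286 in IL-4 cultures. The groups were tight and far apart, with Itgbl1 3.95-fold lower with IL-4 (log2 fold change -1.98 ± 0.09, adjusted p = 1.42e-06). Itgb1bp1 encodes ICAP-1, which competes with talin for the tail of Itgb1, and had 642 to 667 and 732 to 925 normalized counts (log2 fold change 0.34 ± 0.09, adjusted p = 0.0208). This call was lost without control replicate 1 (adjusted p = 0.0751) or control replicate 2 (0.0747), with library totals (0.204) and with limma on log2(FPKM + 1) (0.219). In addition, 370 bases on the opposite strand, or 17.0% of its exonic bases, are shared with Asap2. Itgb3bp encodes the centromere protein CENP-R, first found as a binder of the Itgb3 tail, and had 99.8 to 104 and 122 to 151 normalized counts. Its log2 fold change of 0.37 ± 0.12 passed narrowly (adjusted p = 0.0461) and the call was lost with 10 of the 12 alternatives, among them DESeq2 (adjusted p = 0.0879) and leaving out control replicate 1 (0.132), control replicate 2 (0.109), control replicate 3 (0.101) or IL-4 replicate 5 (0.148).

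Downstream of the receptors, genes of focal adhesion adaptors were mostly lower. Of 22 tested, 17 fell (77.3%, against 18.4% of all genes tested) and 1 rose (4.55%, against 19.0%), with a median log2 fold change of -0.57. Under the alternatives 15 to 19 fell and 1 or 2 rose. The 19 came with library totals and both FPKM fits, under which 4963, 4916 and 4904 of all genes were lower, against 2582 with TMM scaling. Tns1 and Tns3, tensins that bind the tail of the β subunit, fell by 1.14 each on the log2 scale, and Nedd9 (-0.98) and Lims2, which encodes PINCH-2 (-0.90), fell too. Vcl, which encodes vinculin (-0.72), and Pxn, which encodes paxillin (-0.44), are named as the best known of the list, and Tns2 (0.48) as the gene that rose. Tns1 had 8166 to 10701 normalized counts in control and 3419 to 4990 with IL-4.

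Of 13 tested genes that switch the β tail on or off, none rose and 4 fell (30.8%, against 18.4% of all genes tested): Dab2 (-0.69), Tln2 (talin 2, -0.64), Flna (filamin A, -0.59) and Fermt3 (kindlin 3 of blood cells, -0.51). The median was -0.20. With library totals 7 of these 13 fell, as did 4963 of the 14009 genes in all, against 2582 with TMM scaling. With DESeq2, without control replicate 3 or without IL-4 replicate 6, 1 of the 13 rose. Without control replicate 1 or control replicate 2, 2 fell. Tln1 (-0.20, adjusted p = 0.329) and Fermt2 (-0.09, adjusted p = 0.295), the talin and kindlin of most cells, did not pass. Of 8 kinases of the adhesion pathway, 2 rose (25%, against 19.0% of all genes tested) and 3 fell (37.5%, against 18.4%). Fyn rose (0.97), and those that fell included Ptk2b (PYK2, -1.20) and Lyn (-1.0). With library totals 1 rose and 4 fell, and 1 rose with any single library except IL-4 replicate 6 left out. Ptk2, which encodes focal adhesion kinase, did not pass (-0.03, adjusted p = 0.802). Neither did Syk (-0.02, adjusted p = 0.893) or the sparse Fgr (0.31, adjusted p = 0.2), which like Lyn are kinases of myeloid cells.

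**Figure D4:**
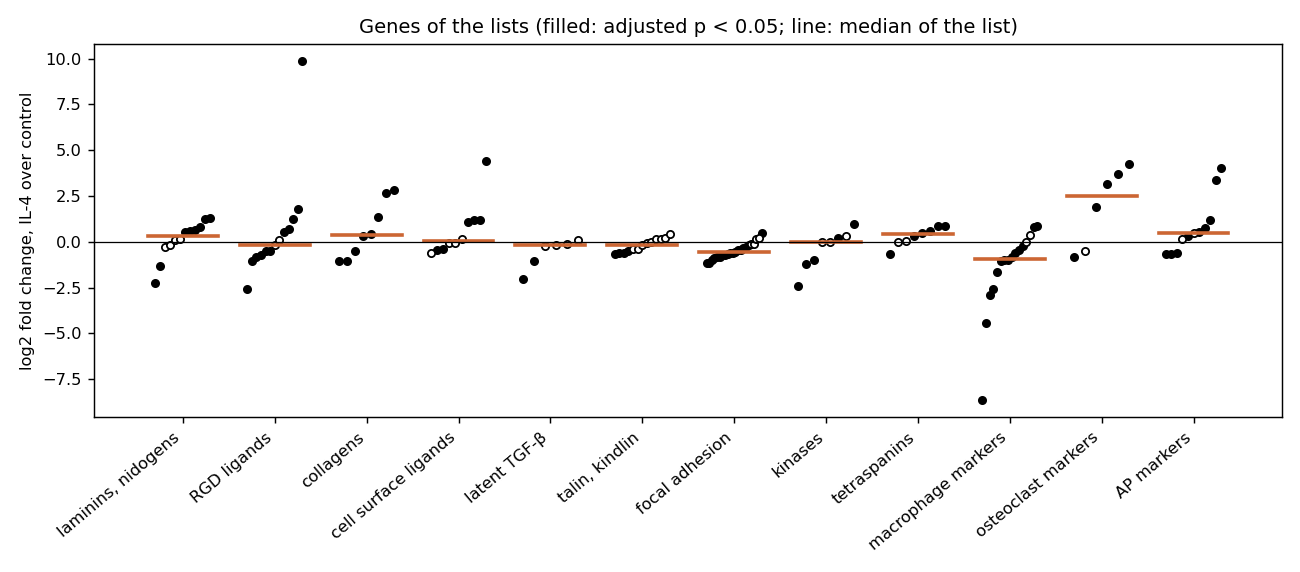
Fitted log2 fold change of IL-4 over control for the tested genes of 12 lists of ligands, partners and cell type markers; each point is a gene, filled for an adjusted p under 0.05, and the orange line is the median of the list. Nearly all points of the focal adhesion list lie below 0 (median -0.57). The macrophage markers have a median of -0.92 and the osteoclast markers one of 2.52. These medians include genes that passed the filter on low counts through 1 group alone: Cx3cr1 and Aif1 through the control libraries, Ocstamp through the IL-4 libraries. The point near the top among RGD ligands is Dmp1, whose fitted value is no bound since its control libraries hold 0 counts.

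The plot of the lists sets these groups beside each other. The laminin, RGD ligand, collagen and cell surface ligand lists hold filled points on both sides of 0. The filled points of the latent TGF-β list lie below 0, and the adaptor list lies mostly below. Lyn, Ptk2b and Fermt3 fell beside the macrophage markers, while Syk and Fgr did not pass. Whether that list bears on these genes was not tested. Among markers of other cells, endothelial genes summed to 13.9 to 14.4 FPKM in control and 14.5 to 16.8 FPKM in IL-4 cultures. Vwf (3.08) and Tek (0.81) were higher (25%, against 19.0% of all genes tested) and 4 of the 8 were lower (50%, against 18.4%), Cdh5 (-1.60) among them. Epithelial genes summed to 4.53 to 5.82 FPKM and 8.42 to 9.45 FPKM. Cdh1 alone rose and 1 of the 6 fell, 16.7% each way and near the 19.0% and 18.4% of all genes tested. Without control replicate 1, control replicate 2 or IL-4 replicate 5, 0 fell. Of the 11 AP markers 6 rose (54.5%, against 19.0% of all genes tested) and 3 fell (27.3%, against 18.4%), with a median log2 fold change of 0.47. Pi16 (4.02), Cd34 (3.35), Ly6a (1.20) and Dcn (0.73) were among those higher, and Pdgfrb (-0.66), Lum (-0.61) and Dlk1 (-0.67) were the 3 lower.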

How the data were processed

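The mRNA-seq data hold 3 control and 3 IL-4 libraries. The small RNA libraries, from other cultures, were not used. The authors filtered reads with SOAPnuke and named HISAT, StringTie, Bowtie2 and RSEM in their processing notes, with mm10 as the build, and versions and strand setting are not given in the sources used here. The deposited expected counts are not normalized, and the deposited FPKM were scaled by the authors for transcript length and library size. A gene absent from a library's file was taken as 0. Of the 180 values of the 30 genes, 16 were fractional and 2 not listed.

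Expected counts were rounded to whole numbers. In every library 1 entry without a gene name was left out, with at most 0.00022% of the counts. Low genes were removed by filterByExpr (at least 10 counts, total of 15), and the rest were TMM-scaled and compared with edgeR 4.0.16 (quasi-likelihood test, Benjamini-Hochberg adjustment over 14009 genes, R 4.3.3). Standard errors were derived from this test, as the size of the fitted log2 coefficient divided by the square root of its F statistic. Replicates differed with a biological coefficient of variation of 0.0939. Shares of FPKM were compared with two-sided exact permutation tests over libraries. Alternatives were DESeq2 1.42.0, upper-quartile scaling, library totals, all genes unfiltered, limma 3.58.1 with FPKM logged after adding 1 or 0.1, and each library left out. For the lists these alternatives were chosen after seeing the data. The edgeR comparison was tested on simulated counts. Coordinates and promoters are RefSeq, GRCm38.p6. Figures were drawn with matplotlib 3.10.9 in Python 3.11.15.

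The 30 genes and all lists were chosen with earlier results of these data known. Values of every library are given for genes averaging 100 normalized counts or more, with an adjusted p under 0.05 and a difference beyond 2-fold. From each list up to 4 genes are named, those with the largest differences that met the same p and count limits, and any others were named after their values were seen. Some genes are not reported here.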

Additional observations from a re-analysis of the deposited data

How the results depend on the processing

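Of 312 values for the 26 genes under the alternatives, 258 kept their direction and their side of the threshold, 26 lost the call, 14 gained it and 14 changed sign. No call beyond 2-fold changed sign. The number of genes higher with IL-4 ran from 4 to 10 and the number lower from 6 to 9 when single libraries were left out, against 7 and 9 with all. Library totals raised the number lower to 14. Over all genes, 2663 were higher and 2582 lower; library totals gave 1704 and 4963, limma on log2(FPKM + 1) 1697 and 4916, and limma on log2(FPKM + 0.1) 1694 and 4904. These settings leave out TMM scaling and moved the median log2 fold change of all genes by -0.17, -0.13 and -0.17. All 14 changes of sign were in genes that did not pass the test: Itga1 was -0.08, -0.09 and -0.11 under these 3 settings, -0.00 without control replicate 3 and -0.03 without IL-4 replicate 4 (range with single libraries left out -0.03 to 0.29). Itga9 was -0.04, -0.02 and -0.02 and Itgb5 -0.04 in all 3. Itga2 was 0.04 without IL-4 replicate 6 (range -0.50 to 0.04), and Itgb1 was 0.01 without control replicate 2 and 0.04 without IL-4 replicate 6 (range -0.05 to 0.04). Under library totals and both FPKM fits, Itga2b, Itga5 and Itga11 passed as lower. For the lists, library totals raised the genes lower from 4 to 7 for talin and kindlin genes and from 2 to 5 for latent TGF-β genes, lowered the genes higher from 5 to 3 for tetraspanins and from 2 to 1 for kinases, and limma on log2(FPKM + 1) lowered those higher from 5 to 3 for collagens. The lists were run under the alternatives after the data had been seen. Of the shares of subunit level, the 10 run with single libraries or subunits under 1 FPKM left out moved by less than the spread between replicates; the others were not run. Genes under 10 counts in most libraries (Itgad, Itgae, Itgb6 and Itgb1bp2) are beyond what this depth can compare. No paired analysis was possible because the control and IL-4 cultures share no replicate number. The causes of these changes were not tested.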
